A study of Mus musculus with 6 samples.

Results

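Of 57132 gene rows counted in glomeruli of diabetic mice, 99 were at a low level without Cre recombinase and higher in every library with it. A gene was taken when 4 limits held on CPM (a row's count divided by the library's total, times 1000000). Its mean was under 1 CPM over the 3 Cre_negative libraries and 1 CPM or more over the 3 Cre_positive libraries. The Cre_positive mean was at least 2 times the Cre_negative mean, and all Cre_positive values lay above all Cre_negative values. The genotype contrast therefore chose the genes, and their levels are given as a description, with no test of that contrast standing behind them. The 99 were 0.173% of all rows and 0.238% of the 41510 rows under 1 CPM in Cre_negative. Of the 15621 such rows with a count in any library, 5.03% had all Cre_positive values above all Cre_negative values. The same limits turned round, low in Cre_positive and higher in Cre_negative, took 183 rows, called mirrored genes here.

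All 6 samples were labelled as glomeruli of mice with diabetic kidney disease (DKD), and all carried floxed Setdb2 alleles. The 3 labelled Cre-/Setdb2fl/fl (Cre_negative) lacked the recombinase and the 3 labelled Cre+/Setdb2fl/fl (Cre_positive) carried it. The title and design of the series place the question in the podocyte, but the promoter driving Cre, the exons deleted, the diabetes model, the age and the sex were not given in the sources used here. The labels do not say that replicates came from separate mice, so the spread between samples may be technical in part.

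SETDB2 is named for its resemblance to enzymes that methylate lysine 9 of histone H3, a mark of silent chromatin. Such chromatin keeps genes of other tissues, germ cells and clustered gene families from being transcribed. Podocytes are the epithelial cells that wrap the capillaries of the glomerulus, the filter of the kidney, and they share it with endothelial, mesangial and parietal cells. No chromatin measurement was used here, so whether histone methylation at any of the 99 genes differed was not tested.

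Setdb2 itself had 591, 492 and 370 counts in Cre_negative replicates 1 to 3 and 427, 444 and 391 in Cre_positive. The 2 genotypes overlapped, and a gene-level count includes exons outside the floxed part and cells without Cre. The libraries held 53571438 to 58807042 counts, so 1 CPM stood for 53.6 to 58.8 counts. Cre_positive replicate 2 stands apart with 24 counts of Xist, the silencing RNA of the inactive X chromosome, against 36474 to 47632 elsewhere. Sex was not labelled, and whether this library differed from the others in sex was not tested. Without that library the same limits took 118 genes, 90 of them among the 99.

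Protein-coding genes made up 62 of them, and 57 carried a proper gene name. Transport proteins and plasma proteins of the liver, ion channels, cell adhesion genes of neurons, extracellular proteases and orphan receptors stood side by side. Their Cre_negative means ran from 0 to 0.999 CPM, with a median of 0.595 CPM, and their Cre_positive means from 1.02 to 104.7 CPM, with a median of 1.69 CPM. The ratio of the means had a median of 2.91. It was under 3 for 52 genes, between 3 and 5 for 29, and 5 or more for 18. Most stayed faint with Cre, since 40 had a Cre_positive mean under 1.5 CPM and 37 one of 1.5 to 2.5 CPM. Serpina6 and Arsi were the only ones at 5 CPM or more.

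**Figure D1:**
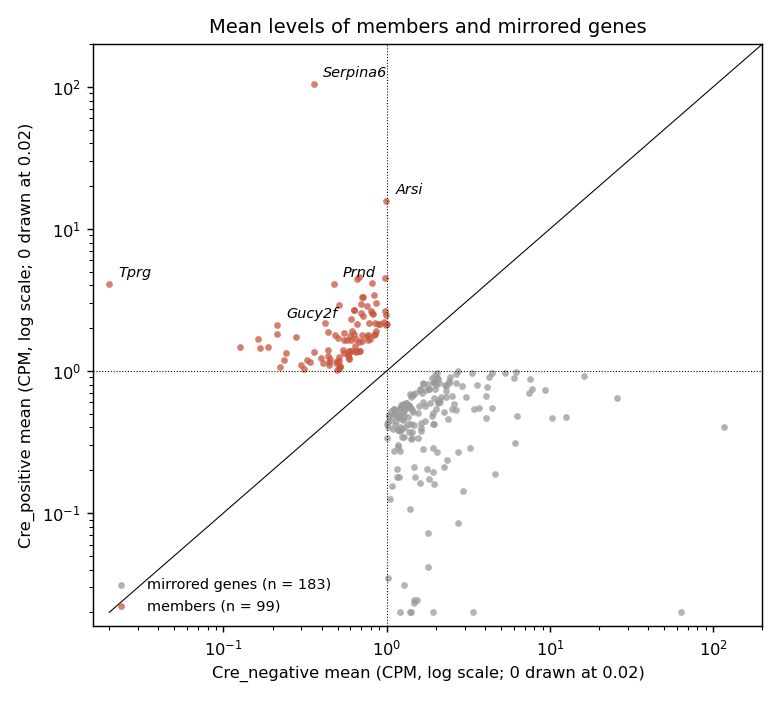
Mean level of each of the 99 genes (red) and of the 183 mirrored genes (grey) in Cre_negative (horizontal axis) and Cre_positive libraries (vertical axis), in CPM on log scales, with dotted lines at 1 CPM, the line of equal levels drawn solid, and means of 0 drawn at 0.02. Most red points crowd just above 1 CPM, while Serpina6 reaches 104.7 CPM, Arsi 15.7 CPM, and Tprg starts from 0 counts.

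Promoters are shown for 5 genes that run from no CpG dinucleotide to many, because DNA methylation, which often accompanies silent chromatin, falls on CpG. They are the 250 bases before the transcription start, 5′ to 3′ on the gene's strand, from RefSeq on GRCm38.p6, with each CpG in capitals. Adgrg4 lies at chrX:56893984-56894233 on the plus strand, and its window had no CpG. Tprg lies at chr16:25286567-25286816 on the plus strand, with 2 CpG. Prnd lies at chr2:131950611-131950860 on the plus strand, with 6 CpG, and holds the letters CACGTG from base 66. Slitrk1 lies at chr14:108914240-108914489 on the minus strand, with 9 CpG, and Hhip at chr8:80058009-80058258 on the minus strand, with 28.
Adgrg4: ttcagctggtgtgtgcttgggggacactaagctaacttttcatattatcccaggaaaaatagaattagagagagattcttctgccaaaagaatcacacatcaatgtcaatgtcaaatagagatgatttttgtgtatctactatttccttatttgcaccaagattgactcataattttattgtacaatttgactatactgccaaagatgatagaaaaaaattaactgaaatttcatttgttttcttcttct
Tprg: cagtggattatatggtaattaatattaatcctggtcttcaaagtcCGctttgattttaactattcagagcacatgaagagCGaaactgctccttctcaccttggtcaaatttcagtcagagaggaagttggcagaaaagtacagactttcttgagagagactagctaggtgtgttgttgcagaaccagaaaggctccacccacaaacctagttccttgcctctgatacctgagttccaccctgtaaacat
Prnd: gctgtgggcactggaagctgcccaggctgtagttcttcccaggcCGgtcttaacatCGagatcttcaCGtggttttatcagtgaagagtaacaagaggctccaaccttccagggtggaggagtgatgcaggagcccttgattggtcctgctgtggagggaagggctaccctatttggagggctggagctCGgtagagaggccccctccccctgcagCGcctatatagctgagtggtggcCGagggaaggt
Slitrk1: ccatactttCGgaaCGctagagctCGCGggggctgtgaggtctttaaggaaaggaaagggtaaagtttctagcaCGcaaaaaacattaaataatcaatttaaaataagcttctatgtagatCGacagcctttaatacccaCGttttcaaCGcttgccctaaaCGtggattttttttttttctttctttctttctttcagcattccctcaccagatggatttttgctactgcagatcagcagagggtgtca
Hhip: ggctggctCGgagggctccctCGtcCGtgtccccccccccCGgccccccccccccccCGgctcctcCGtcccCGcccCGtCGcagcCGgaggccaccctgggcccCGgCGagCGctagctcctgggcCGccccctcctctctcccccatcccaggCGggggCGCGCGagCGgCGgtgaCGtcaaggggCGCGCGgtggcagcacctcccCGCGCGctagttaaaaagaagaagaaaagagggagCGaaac

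Over the full window of the RefSeq table, 250 bases before to 50 after the start, 58 of the 99 genes matched. In 51.7% of the 58 the window held at most 5 CpG, against 49.7% of 4243 other genes under 1 CPM in Cre_negative with a count, and 43.6% of all 27025 windows. Among protein-coding genes the median was 6 CpG for the 44 raised genes with a window, 6 for 2688 other low-expressed genes and 14 for all 16499. A window of 15 CpG or more was found for 27.3%, 24.6% and 49.1% of these sets. The raised genes lay close to other low-expressed genes in these shares, and no test was made. Of 5 motifs searched on both strands over the 300 bases, TATAAA, the core of the TATA box, was in 8.62% of the 58 windows and 14.2% of all. CAGACA, which holds the Smad-binding letters, was in 9 of the 58 and 5684 of all 27025. CACGTG, the E-box of basic helix-loop-helix factors, was in 3.45%, the windows of Prnd and Adamts17, and in 7.24% of all. GTCTAGAC, the Smad-binding palindrome, and the palindromic glucocorticoid receptor element were in none of the 58 and in 0.211% and 0.0037% of all. CAGACA and GTCTAGAC share the letters AGAC, and a match marks letters, not a site.

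**Figure D2:**
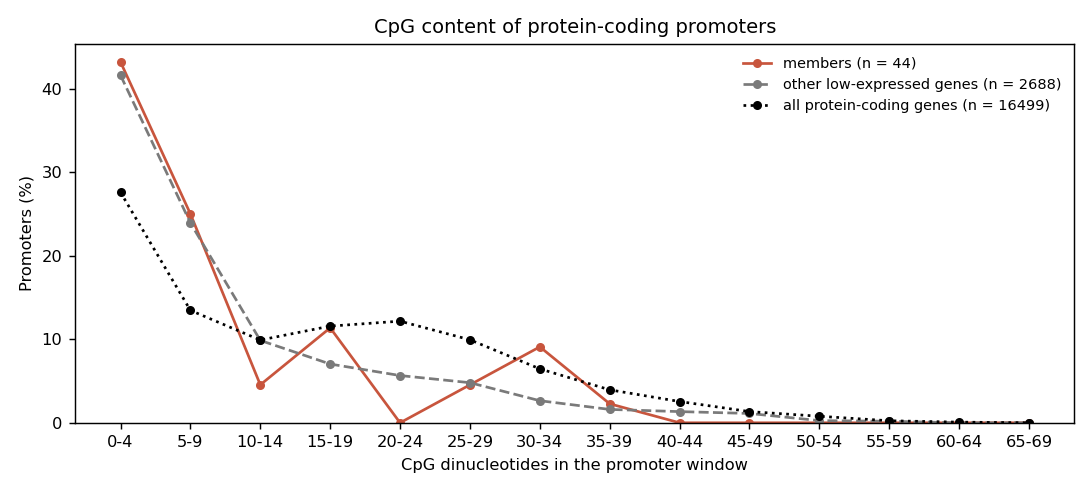
Share of protein-coding promoter windows (vertical axis, percent) by number of CpG dinucleotides in 300 bases (horizontal axis, bins of 5) for the raised genes (n = 44), other low-expressed genes (n = 2688) and all protein-coding genes (n = 16499). The raised and other low-expressed genes both peak at 0 to 4 CpG, while all protein-coding genes have a broad second rise at 15 to 29.

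Serpina6, 1 of 4 liver-type genes, had the highest mean level of the set. It encodes corticosteroid-binding globulin, which the liver secretes to carry glucocorticoids in blood. It had 37, 25 and 0 counts in Cre_negative replicates 1 to 3 and 11941, 4633 and 598 in Cre_positive, or 0.357 ± 0.323 and 104.7 ± 108 CPM (mean ± SD, n = 3 each). The lowest Cre_positive value lay far above the highest Cre_negative one, yet the Cre_positive values spread 20.4-fold. The ratio of the means, 293, was the highest of the set, and replicate 1 carried most of it. Slc10a1, the sodium-dependent bile acid carrier of hepatocytes, had 0.969, 0.761 and 0.307 CPM and then 9.82, 2.12 and 1.90 CPM, again highest in Cre_positive replicate 1. Slco1a4, an organic anion carrier of liver and brain endothelium, had 0.459, 0.531 and 1.59 CPM and then 1.92, 3.57 and 3.56 CPM, and here Cre_positive replicate 1 was the lowest. The 4 genes summed to 236, 87.9 and 18.4 CPM in Cre_positive replicates 1 to 3, and in replicate 3 that was below the 10 matrix and protease genes at 38.7 CPM. Itih2, a heavy chain of the plasma inter-alpha-trypsin inhibitors, had means of 0.574 and 1.65 CPM. Summed over 10 other hepatocyte genes, chosen after these values were seen, the level was 180 to 317 CPM in Cre_negative and 141 to 214 CPM in Cre_positive, with Ahsg and Cps1 at 0 in all 6 libraries. That list was split. Apob had means of 93.1 CPM without Cre and 43.8 CPM with it, and Fga 65.6 and 34.6 CPM, while Serpina1c had 15.4 and 28.0 CPM, Alb 3.41 and 6.15 CPM, and Apoa1 0.282 and 0.688 CPM.

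Relatives of the liver-type genes differed in direction. Serpina6 sits next to Serpina10, a clade A serpin that inhibits clotting proteases, on chromosome 12. Serpina10 went the opposite way, with 1862, 470 and 471 counts in Cre_negative and 66, 40 and 46 in Cre_positive. Among 24 clade A serpin rows, 1 was raised by the rule and 3 were mirrored, Serpina10, Serpina3n and Serpina7. Serpina1a, an alpha-1-antitrypsin gene, had 1352, 2176 and 1847 counts and then 2299, 4398 and 4313, higher in every Cre_positive library but short of the threshold of an adjusted p under 0.05 (log2 fold change 1.09 ± 0.30 SE, adjusted p = 0.0937, edgeR's quasi-likelihood test). Its near-identical copies can share reads. Slc10a5, of the family of Slc10a1, rose from 1518, 1290 and 1651 counts to 2101, 2062 and 2340 (log2 fold change 0.62 ± 0.11 SE, adjusted p = 0.0142, edgeR's quasi-likelihood test). Slc10a2, the bile acid carrier of ileum and proximal tubule, had 2829, 4433 and 5105 counts without Cre and 552, 1370 and 1872 with it, a difference that missed the threshold in the same test (log2 fold change -1.64, adjusted p = 0.145). Slco1a6, the relative of Slco1a4 with the most counts, had 6901 to 9505 counts without Cre and 8955 to 15206 with it, so its genotypes overlapped.

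By hand, 9 genes were grouped as neuronal, with a median ratio of 3.75. The share of any such hand-made group among all low-expressed rows was not counted, so no excess is read. Slitrk1, a transmembrane protein of neurites and synapses, had 0.884, 0.708 and 0.523 CPM in Cre_negative and 3.25, 2.43 and 4.34 CPM in Cre_positive (means 0.705 ± 0.181 and 3.34 ± 0.959, SD, n = 3). The lowest Cre_positive value was above 2 times the highest Cre_negative one. Gpr12, an orphan receptor of the brain, had 0, 0 and 21 counts and then 43, 86 and 118 counts. Lrrc55, an accessory subunit of large-conductance potassium channels, went from a mean of 0.278 to 1.73 CPM, and Kcnb2, a delayed rectifier subunit, from 0.243 to 1.34 CPM. Astn1, an adhesion protein of neurons migrating on glia, was the most even of the 9, with 1.70, 1.58 and 1.81 CPM in Cre_positive against 0.442, 0.460 and 0.613 CPM. Fat3 (an atypical cadherin), Grin3a (a subunit of NMDA receptors), Camk2a (a synaptic kinase) and Stum made up the rest, with ratios of 2.09 to 3.75.

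The summed level of 9 neuron markers was 4.23 to 5.78 CPM without Cre and 1.40 to 1.66 CPM with it, with Elavl4 at 0 in every library. The neurofilament genes Nefl and Nefm, both mirrored, made up much of that gap, with means of 1.63 and 1.20 CPM and then 0.432 and 0.179 CPM. Stmn2 (adjusted p = 0.129), Syt1 (0.290) and Rbfox3 (0.922) did not pass edgeR's quasi-likelihood test, and Snap25 had at most 6 counts in a library. Within the Slitrk family, Slitrk4 on the X chromosome was mirrored, with 189, 114 and 81 counts in Cre_negative and 12, 12 and 11 in Cre_positive. Slitrk6, the gene after Slitrk1 on chromosome 14, had 85, 116 and 224 counts and then 167, 272 and 299, so its genotypes overlapped. Slitrk2 and Slitrk3 had no count.

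**Figure D3:**
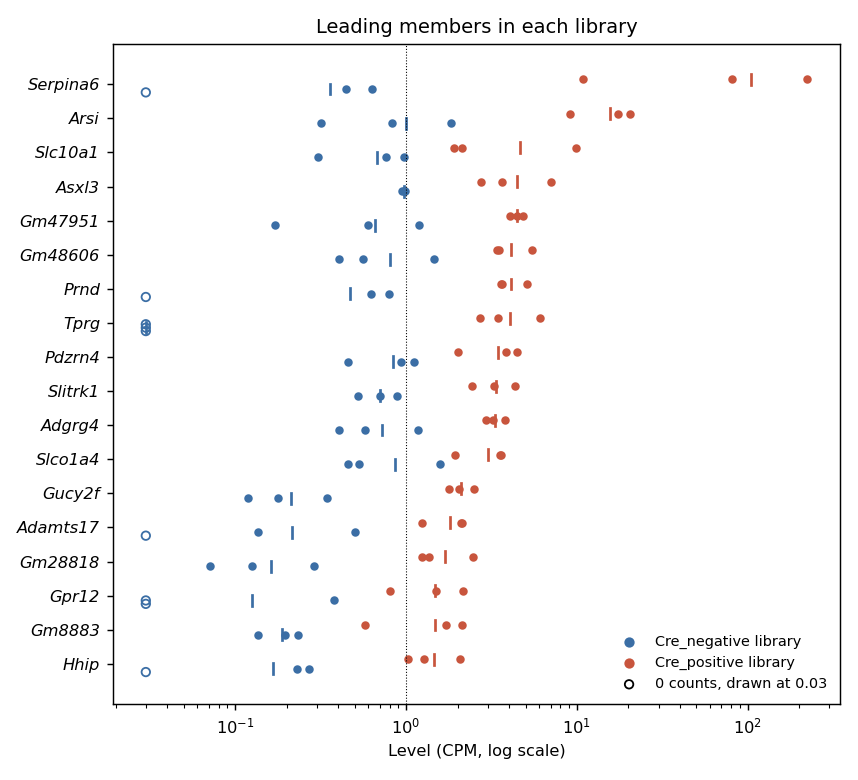
Level of 18 leading genes in each library, in CPM on a log scale, for Cre_negative (blue) and Cre_positive (red), with a short line at each mean, a dotted line at 1 CPM and open circles for 0 counts drawn at 0.03. Red points lie right of blue points in every row by the rule, widely spread for Serpina6 and Slc10a1 and close together for Gm47951 and Adgrg4.

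Tprg was the one gene with no count in any Cre_negative library. It is named as regulated by tumour protein p63 and lies beside Trp63, the gene of p63, on chromosome 16. It had 185, 156 and 331 counts in Cre_positive, a mean of 4.06 ± 1.75 CPM (SD, n = 3). Set against a floor of 3 counts per library, 0.0527 CPM on average, it was at least 77.1-fold higher. Trp63 had 46, 70 and 45 counts without Cre and 61, 93 and 43 with it, so that its genotypes overlapped. The gene on the other side, A230028O05Rik, had 24, 25 and 8 counts and then 3, 8 and 17. Prnd, the prion-like protein doppel of the testis, had 47, 35 and 0 counts and then 194, 294 and 197. Prnp, the prion protein gene of the same family, was not among the 99, with 8730 to 11316 counts without Cre and 7729 to 8297 with it.

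Arsi, a sulfatase of the secretory pathway, was the second most abundant at 15.7 ± 5.93 CPM with Cre. It had 1.84, 0.319 and 0.830 CPM in Cre_negative and 9.05, 17.5 and 20.5 CPM in Cre_positive. Its Cre_negative mean, 0.995 ± 0.772 CPM, was just under the limit and owed much to replicate 1. Its neighbour Camk2a, on the same strand of chromosome 18, was also among the 99, with 0.442, 0.460 and 0.866 CPM and then 1.25, 0.919 and 1.53 CPM. None of the other 5 arylsulfatase rows was, and Arsj, a close relative, stayed at 0.450 and 0.457 CPM. Asxl3, which belongs to a family of Polycomb-associated chromatin regulators, had the most even start of the leading genes, with 0.952, 0.973 and 0.992 CPM, and then 7.04, 2.74 and 3.65 CPM. Asxl1 and Asxl2, expressed far higher at 67.6 and 38.4 CPM, had ratios of 0.928 and 0.973.

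The matrix and protease group held 10 genes with a median ratio of 3.00. Adamts17, a secreted metalloprotease, had 8, 0 and 28 counts in Cre_negative and 66, 121 and 116 in Cre_positive. Adamts8, of the same family, had 1.00, 0.902 and 0.487 CPM and then 1.12, 2.83 and 4.01 CPM, with Cre_positive replicate 1 barely above the highest Cre_negative library. Adamts15, which lies beside Adamts8 and was too abundant for the limits, went from 644, 899 and 644 counts to 1840, 1921 and 1882 (log2 fold change 1.44 ± 0.15 SE, adjusted p = 0.00157, edgeR's quasi-likelihood test). Mmp9 (gelatinase B), Pappa2 (a protease of insulin-like growth factor binding proteins), Cpz (a carboxypeptidase), Gpc5 (a glypican), Ndst3 (a heparan sulfate sulfotransferase), Galnt16 (an enzyme of mucin-type glycosylation) and Clec3b (tetranectin) had ratios of 2.13 to 5.10.

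Receptors and secreted signals counted 9 genes. Adgrg4, an adhesion G protein-coupled receptor on the X chromosome, had 0.578, 0.407 and 1.17 CPM in Cre_negative and 3.79, 3.24 and 2.95 CPM in Cre_positive. Its Cre_positive values differed little, a mean of 3.33 ± 0.424 CPM (SD, n = 3). Hhip, which binds hedgehog ligands and blocks them, had 0, 13 and 15 counts and then 111, 73 and 56. None of the other 9 hedgehog pathway rows examined was among the 99, and their ratios ran from 0.588 for Dhh to 2.18 for Shh. Dlk1, an imprinted Notch-like ligand, had 6, 24 and 8 counts and then 80, 52 and 45. Cxcr3 (a chemokine receptor of T cells), Adra1d (an adrenergic receptor), Il17f (a cytokine), C1qtnf9 (a relative of adiponectin), Tff1 (a trefoil peptide of the stomach) and Vash1 (an inhibitor of angiogenesis) had ratios of 2.14 to 2.89.

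Genes of muscle, ion channels and gap junctions numbered 8. Ryr2, the calcium release channel of heart muscle, had 0.714, 0.531 and 0.289 CPM in Cre_negative and 2.58, 3.45 and 2.68 CPM in Cre_positive. The genotypes stood well apart, while Ryr1 had at most 6 counts in a library and Ryr3 at most 21. The skeletal muscle markers summed to 3.70 to 7.02 CPM without Cre and 1.62 to 3.14 CPM with it. Gja3 and Gjb6, connexins that lie on either side of Gjb2 on chromosome 14, were both among the 99, with means of 0.602 and 0.672 CPM without Cre and 1.66 and 1.59 CPM with it. Gjb2 between them had 2928 to 4502 counts and then 2816 to 3717. Gucy2f, the guanylate cyclase of photoreceptors, had 7, 10 and 19 counts and then 134, 103 and 112, a ratio of 9.91, and the lens crystallin gene Crybb3 a ratio of 2.14. Prrx2, a homeobox factor of mesenchyme, and Egr3, an immediate-early factor, had ratios of 3.22 and 3.70.

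Long non-coding RNAs made up 24 of the 99, 12 intergenic, 11 antisense and 1 processed transcript. The intergenic Gm28818 had 17, 4 and 7 counts in Cre_negative and 66, 79 and 135 in Cre_positive, and its neighbour Gm8883 on chromosome 1 had 8, 11 and 13 and then 31, 99 and 116. The processed pseudogene Gm47951 had 10, 34 and 66 counts and then 258, 234 and 246, nearly level among the Cre_positive libraries. Near-identical copies can share reads in the authors' counting, so the 4 pseudogenes are uncertain. A further 5 loci are annotated as yet to be established by experiment, and 4 identifiers were not in the annotation used.

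**Figure D4:**
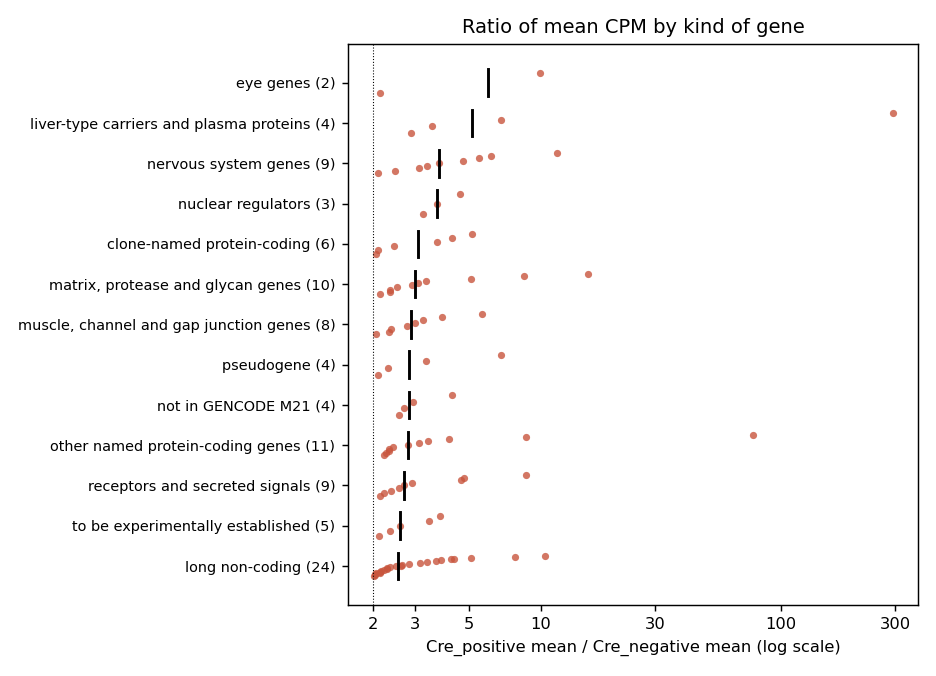
Ratio of the Cre_positive to the Cre_negative mean CPM of each gene (points, log scale) by kind of gene, with a bar at each median, the number of genes in brackets and a dotted line at the limit of 2. Tprg is drawn at its lower bound of 77.1, and Serpina6, at 293, lies far right of the other liver-type genes.

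Protein-coding genes took 62.6% of the 99, 25.0% of the low-expressed rows with a count and 80.3% of the mirrored genes. Long non-coding RNAs took 24.2%, 24.5% and 10.9%. The 99 had to reach a mean of 1 CPM with Cre, whereas the low-expressed rows needed only a count in any library. These sets differ in abundance by the rule, so no excess of a gene type is read. The 95 genes with an annotation had a median exon length of 3.21 kb. Per kilobase of exon, the Cre_positive levels ran from 0.0883 CPM per kb for Kcnb2 to 5.27 for Arsi and 59.5 for Serpina6, with a median of 0.567. The low end was held by genes with long exons, Kcnb2, Fat3 at 0.0886 and Ryr2 at 0.101 CPM per kb.

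The 95 placed genes were scattered over all autosomes except 19, and the X chromosome. Chromosome 1 held 15 of them, or 15.8%, against 7.03% of the low-expressed rows with a count and 6.29% of the mirrored genes. Chromosome 14, which holds Setdb2, had 7, or 7.37% against 4.83% of the low-expressed rows. They were Slitrk1, Gpc5, Lrrc3b, Gja3, Gjb6, C1qtnf9 and Egr3. Directly beside another of the set lay 8 of the 95 (8.42%), in 4 pairs. Neighbours were the nearest annotated rows with a count on either side, and no comparable share over such rows was computed. No test of this was made. The pairs were Gm8883 with Gm28818 and Astn1 with Pappa2 on chromosome 1, Arsi with Camk2a on chromosome 18, and Slco1a4 with Gm30784 on chromosome 6. All but the Arsi pair lie on opposite strands.

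**Figure D5:**
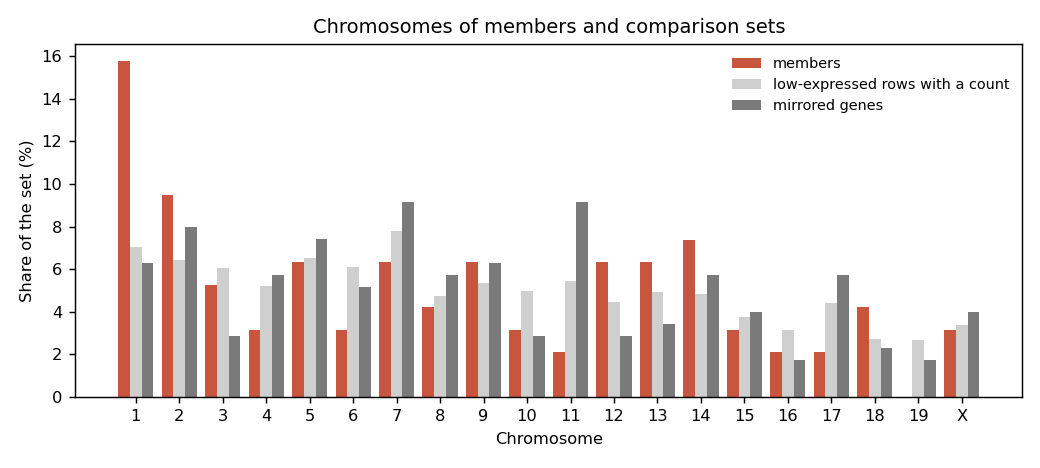
Share of each set by chromosome (percent) for the 95 placed genes (red), low-expressed rows with a count (light grey) and mirrored genes (dark grey). Chromosome 1 holds 15.8% of the raised genes against 7.03% and 6.29% of the other sets, and chromosome 19 holds none of them.

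With the 8 paired genes left out, 89 neighbours of the set were at 1 CPM or more in a genotype. Of them, 57 had a higher mean with Cre (64.0%), against 43.2% of 15882 rows of that abundance, and their median ratio was 1.06 against 0.972. A ratio of 2 or more was found for 2 of the 89 (2.25%, against 1.35% of those rows) and one of 0.5 or less for 2 (2.25% against 4.14%). The 89 include genes that overlap a gene of the set, such as Fcgr2b at 1.62, Slc33a1 at 0.842 and Gm20743 at 2.02. Reads of such neighbours may not be separable from those of the set, so nothing is read from these shares. Of the 95 placed genes, 55 overlapped another annotated gene, 45 of them one with counts. The kit marks strand, but the strand setting of the counting was not given in the sources used here, so reads of overlapping genes may not be told apart. In 17 cases the partner had at least 10 times the counts, as for Kcnj13 (a potassium channel of epithelia) inside Gigyf2 and Tff1 against Gm15318. Those 17 partners had ratios of 0.842 to 1.62. Taking for each of the 45 genes the overlapping gene with the most counts, 15 of these had a ratio of 2 or more. Gm20743, which overlaps Gm37403, had 2.02 with a mean of 160 counts per library. All the others had means of at most 19.8 counts per library, and many had none in Cre_negative. No comparable share over all rows was computed, so nothing is read from this count. What reads of overlapping genes added to the levels was not tested.

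Gene families looked at as candidates for silencing gave 1 of the 99. None of 26 germline genes, 58 clustered protocadherins, 1969 olfactory and vomeronasal receptors, 450 zinc finger genes, 43 Hox genes or 88 X-linked cancer-testis rows was among them, nor any of 490 immunoglobulin and T cell receptor segments. Dlk1 was the one of 29 imprinted genes. With 0.238% of all rows under 1 CPM in Cre_negative taken by the rule, few or none would be met in families of this size, and no absence is read. Many of these rows gave no count, such as all but 173 of the receptors and all but 12 of the germline genes. Others were too abundant to qualify, since 79 of the zinc finger and 8 of the Hox rows were under 1 CPM in Cre_negative.

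Marker sums of other cells differed between the genotypes. Summed levels of 10 proximal tubule markers were 7342 to 8284 CPM without Cre and 11327 to 12147 CPM with it, and of 8 podocyte markers 504 to 594 and 684 to 765 CPM. Red blood cell markers summed to 124 to 286 and 331 to 670 CPM. All genes of these 3 lists were detected. Their part in the 99 was not tested, and in bulk samples fewer cells of a type and less RNA per cell cannot be told apart. Adrenal cortex genes, at 6.19 to 7.45 CPM, and male germ cell genes, at 1.66 to 2.02 CPM, had lower sums with Cre, 4.52 to 5.90 and 1.14 to 1.35 CPM, and Cyp11b1, Cyp11b2 and Nr5a1 of the first and 7 of 10 of the second were at 0 throughout. So were Lep and Cidea of the adipocyte list, whose sums were 4.91 to 10.8 CPM and then 3.70 to 4.87 CPM. The B and plasma cell sums (7.52 to 23.3 and 13.9 to 15.4 CPM) and the urothelial sums (3.45 to 38.0 and 10.01 to 46.6 CPM) overlapped.

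Over all 99 the summed level was 51.4 to 66.9 CPM in the Cre_negative libraries and 427, 278 and 217 CPM in Cre_positive replicates 1 to 3. Without Serpina6 the Cre_positive sums were 204, 198 and 206 CPM, so the gap among these libraries was that of 1 gene. Replicate 1 was the highest Cre_positive library for 38 genes, replicate 2 for 27 and replicate 3 for 34. In Cre_negative, replicate 3 was the highest for 50 and replicate 2 for 19. Without Cre_negative replicate 3 the limits took 164 genes, 96 of them among the 99.

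A test across all genes was run as background. With edgeR's quasi-likelihood test and an adjusted p under 0.05, 743 of 19927 genes tested were higher in Cre_positive (3.73%), and 7.55% changed in either direction. All 99 passed the filter on low counts, and 34 of them were past the threshold, a count from which nothing is read because the same contrast chose them. It was 13 without Cre_positive replicate 2, 14 without replicate 3 and 18 without replicate 1.

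Adra1d at 0.999 CPM, Arsi at 0.995, 6430511E19Rik at 0.993 and Mmp9 at 0.991 were just inside the Cre_negative limit. Ntrk2 at 1.01, Gm19461 at 1.015, Ccdc180 at 1.06 and B930059L03Rik at 1.07 CPM were just outside, first of 166 genes that met only the other limits. Inside the Cre_positive limit were Gm15834 at 1.02, Gm43158 and 0610038B21Rik at 1.04 and Kcnj13 at 1.07 CPM, and just outside Spib at 0.992, 9230112J17Rik at 0.987 and Cacna1e at 0.986 CPM, of 478. The ratio limit of 2 parted C78859 at 2.01, Gm26981 and 0610038B21Rik at 2.03 and Gm29609 at 2.05 from Atf7ip2 at 1.97, Cyp2f2 and Alkal2 at 1.96 and Edil3 at 1.95, of 56. Gm21691 and Cap2 cleared the limit on overlap by 0.00535 and 0.00615 CPM, and 26 genes failed only that limit.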

How the data were processed

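RNA was sequenced from 6 glomerular samples, 3 per genotype. The files hold 1 table of gene counts, deposited by the authors as whole numbers without normalization. Per the labels' protocols, polyadenylated RNA was made into strand-marked libraries and sequenced as read pairs. The build GRCm39 and the tools fastp, HISAT2, StringTie and edgeR come from the submitters' processing notes, which assign no roles. How strand and multi-mapping reads were treated, and on which annotation, is not given in the sources used here, which leaves overlapping and near-identical genes uncertain.

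CPM was computed on column sums, and groups were taken from the labels. The genotypes were compared with edgeR 4.0.16 in R 4.3.3 (TMM, filterByExpr, quasi-likelihood test with robust=TRUE, Benjamini-Hochberg adjustment). A standard error (SE) is the size of the log2 fold change over the root of the F statistic. The script was tested on simulated data. Alternatives were DESeq2 1.42.0, other scalings, filters and limits, a replicate block and each library left out. The scaling alternative for which library was highest was chosen after seeing the data. The floor, 3 counts in each library, stands for counting error alone. Every pair of libraries differed by a chi-square of at least 20.6 per degree of freedom, so none was a repeat of another. Gene types, neighbours and overlaps came from GENCODE M21, on GRCm38, which matched 51880 rows and 95 of the 99 genes. Chromosomes, gene order, overlaps and exon lengths rest on its positions, while the promoter coordinates shown came from RefSeq.

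The genes and lists were chosen with earlier results of these data known, and the grouping by role was made by hand after values were seen. Genes with full values were the 5 markers given for the set (Tprg, Arsi, Slitrk1, Adgrg4 and Asxl3), the 12 highest in Cre_positive mean, the 12 with the largest ratio, those in a fixed list or next to another of the set, and those at each limit. Relatives of these genes, and further genes shown for their role, were added after their values were seen.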

Additional observations from a re-analysis of the deposited data

How the results depend on the processing

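The number of raised genes, 99, was 108 on TMM-scaled CPM and 106 on DESeq2 size factors, and all 99 were kept in both. It was 31 with a Cre_negative limit of 0.5 CPM, 47 with a ratio of 3 or more, 140 with 1.5 or more, 125 with overlap allowed and 100 on medians, of which 85 were shared. With limits of 2 CPM in place of 1 it was 80, 35 of them shared. Leaving out 1 library gave 110 to 164, and for the mirrored genes 157 to 247 around 183. The genotype comparison called 1505 genes, 2545 with DESeq2, and 462 to 2039 with 1 library left out. The lowest was without Cre_positive replicate 3, and 605 were called without replicate 2 and 700 without replicate 1. The other scaling and filters and robust=FALSE gave 1437 to 1623. Of the 99, 70 were past the threshold with DESeq2. None of the log2 fold changes of the 99 reversed direction, but the limit on overlap largely fixed that in advance, so nothing is read from it. Leaving out a library reduces the samples, and the cause of the other differences was not tested.

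With the replicate number as a block, 1541 genes were called, 32 of them among the 99. Same-numbered samples deviated together with correlations of only 0.0547, 0.0551 and 0.0173, so the numbers were not taken to pair the samples.

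Limits remain. With 3 samples per genotype and about 1 CPM per gene, single libraries move which genes meet the limits. Rows without a count cannot show a rise, and the libraries carry no label of a batch.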

Other observations

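The 183 mirrored genes, low with Cre and higher without it, held other tissue genes than the 99. The neurofilament genes Nefl and Nefm and the skeletal muscle actin gene Acta1 were among them, as were Zfp365, 1 of 450 zinc finger genes, and the olfactory receptor genes Olfr1318, Olfr56 and Olfr920, 3 of 1969 receptor rows. The mirrored rule took 183 of all 57132 rows, and nothing is read from these family counts. The acute-phase serpin Serpina3n had 323, 50 and 33 counts in Cre_negative replicates 1 to 3 and 4, 24 and 12 in Cre_positive. Serpina7, which encodes thyroxine-binding globulin, had 80, 66 and 61 counts and then 16, 16 and 13. Both genotypes stood apart for these genes by the rule that chose them.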
